A study of Mus musculus with 20 samples.

Results

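Kidneys of mice that received hemin before ischemia and reperfusion (IRI+Hemin) were compared with kidneys of mice that underwent ischemia and reperfusion alone (IRI). The comparison takes in 8 of the 20 arrays of the series, the 4 titled kidney_IRI+Hemin and the 4 titled kidney_IRI, chosen by their sample titles. All mice were adult male C57BL/6 animals, and no transgene or deletion is named for any group. In both groups the 2 renal pedicles were clamped for 45 min under anesthesia and the kidneys were taken after 6 h of reperfusion. The IRI+Hemin mice also received hemin, 25 mg/kg into the peritoneum, 24 h before surgery, and the sources used here name no vehicle injection for the IRI mice. Values of Control mice (no surgery, no treatment), Hemin mice (hemin without surgery) and IPC+IRI mice (a short preconditioning ischemia before the same IRI, without hemin) are given beside them for some genes. Each sample is total kidney RNA on 1 Agilent array of the whole mouse genome, read in the Cy3 channel.

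Hemin is an oxidised form of heme and a classic inducer of heme oxygenase 1, the enzyme that opens the heme ring and releases biliverdin, carbon monoxide and iron. Free heme also represses its own synthesis through the first enzyme of the pathway and inactivates the repressor Bach1. The kidney after ischemia is known for tubular injury markers, chemokines and immediate early factors on one side and for loss of fatty acid oxidation, the main fuel use of the proximal tubule, on the other. The question of the comparison is which of these transcripts differ when hemin was given first.

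Levels are log2 values of the background-subtracted signal divided by the 75th percentile of the array, so that 0 lies at this percentile, and differences are IRI+Hemin minus IRI on the same log2 scale. Because levels of different probes cannot be set against each other, each gene is compared with itself across groups. All 11 kidney markers examined were well above background, a flag of the scanner software, on all 8 arrays, among them Slc34a1 and Lrp2 of the proximal tubule, Umod of the thick limb, Aqp2 of the collecting duct and Nphs1 of the podocyte. The 75th percentile was 162 to 281 intensity units in IRI and 174 to 358 in IRI+Hemin, and the share of genes well above background per array was 57.4% to 62.1% and 60.2% to 66.5%. The lowest correlation between any 2 arrays of a group was 0.981 in IRI and 0.976 in IRI+Hemin. No slide held more than 1 group. The scan day was the same for Control and IRI, later for IRI+Hemin, and later still for the slides of Hemin and of IPC+IRI. Slide, scan day and hemin therefore cannot be told apart in any value below, and the p-values measure only the spread among the arrays of a group. In whole kidney RNA, fewer cells of a type and less RNA per cell cannot be told apart either.

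Of 17835 genes tested, limma called 4648 higher in IRI+Hemin (Benjamini-Hochberg adjusted p below 0.05), or 26.1%, and 3206 were lower, or 18%. An unadjusted p below 0.05 was reached by 5453 and 3776 genes. At least 2-fold differences with the same adjusted p were held by 1326 higher genes (7.43%) and 897 lower genes (5.03%). All 4 IRI+Hemin arrays lay above all 4 IRI arrays in 23.4% of the genes tested and below them in 15.5%. The median difference of all genes tested was 0.08. Of all called genes 59.2% were higher, a share that moved with the processing. It was 44.9% with normexp background correction and 45.8% without the filter on dim genes. Without scaling between arrays it was 91.5%, and the median of all genes shifted to 0.45, and with the deposited log2 matrix it was 76.8% with a median of 0.24. With quantile normalization it was 55.4%, and with the 75th percentile of probes bright on all arrays 56.2%. Counts of gene lists below stand beside 26.1% of all genes higher and 18% lower, or beside 3.35% lower without normalization and 9.61% with the deposited matrix. Genes well above background on at least 3 arrays of 1 group entered the test, so 816 of the higher and 182 of the lower genes were measured so well in 1 group alone. Over the 15807 genes measured so in both groups, a count added after seeing the data, 24.2% were higher and 19.1% lower.

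The difference between Hemin and Control kidneys comes from 8 other arrays. There, 3419 of 18579 genes were higher in Hemin (18.4%) and 3260 lower (17.5%). Over 17350 genes tested in both pairs, 2192 were higher with hemin in both, which is 48.6% of the genes higher with ischemia and 66% of those higher without it. Lower in both were 1637 genes, 52.2% and 56.5% of the respective sets. Only 183 genes were higher with ischemia and lower without it, and 30 were the reverse. The test of the difference between both hemin effects (the interaction) called 1400 of 17835 genes (7.85%). Both hemin groups were scanned on later days than their hemin-free partners, and the part of the scan day in either pair was not tested. Control 2 stood apart from the other 3 Control arrays, as in Lars2 (8.98 against 3.95 to 4.01), Slc4a7 (1.19 against 3.89 to 4.05) and Sod3 (0.32 against 1.62 to 2.37), where it lay toward the groups scanned later. Without it, a fit added after seeing the data, 4165 genes were higher in Hemin and 3404 lower, and the interaction called 1291. The hemin-alone calls of Cpt1a, Fgg, Fosl2, Slc7a12 and Tnfrsf12a, given below, were lost without Control 3 (adjusted p = 0.057 to 0.11), and some of them without other single arrays of Control or Hemin.

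Hmox1, which encodes heme oxygenase 1, did not pass the test. Its level was 5.38, 6.12, 6.61 and 5.09 in the IRI+Hemin arrays and 5.69, 5.63, 6.14 and 6.67 in the IRI arrays (probe at chr8:77624207-77624266, mm9). The groups overlapped over most of their range. The difference was -0.23 (95% interval -1.22 to 0.76, adjusted p = 0.715), so that the interval holds both a fall and a rise of the gene. For comparison, the mean was 1.37 in Control, 1.93 in Hemin and 3.96 in IPC+IRI, and the hemin difference without ischemia was 0.56 (adjusted p = 0.363). Hmox2, the constitutive isoform, was lower in IRI+Hemin by a small amount (-0.41 ± 0.12 SE, adjusted p = 0.00889) and was lower in Hemin than in Control as well (-0.50), but the call was lost with normexp background correction, without normalization and with the deposited matrix.

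Alas1, the first enzyme of heme synthesis, was higher in IRI+Hemin. Its level was 5.17, 4.87, 4.56 and 4.31 in IRI+Hemin and 3.03, 3.37, 2.70 and 2.71 in IRI. Every IRI+Hemin array stood above every IRI array and also above the Control mean of 3.86, whereas the IRI mean of 2.96 was below it. In IPC+IRI, Alas1 was at 3.68, 3.33, 3.98 and 3.11. The difference was 1.77 ± 0.22 (SE, adjusted p = 1.34e-05), or 3.41-fold, and both of its probes were higher (1.68 and 2.10). Hemin alone gave -0.23 (adjusted p = 0.435), and the interaction was 2.00 ± 0.31 (adjusted p = 0.000716), a call made in every alternative that was run.

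Bach1, the heme-sensing repressor of Hmox1, was higher too. It stood at -0.17, 0.81, 0.59 and 0.25 in IRI+Hemin and at -2.27, -0.57, -0.94 and -1.63 in IRI, without overlap. The difference was 1.72 ± 0.31 (adjusted p = 0.000278), and the interaction did not pass (1.26, adjusted p = 0.0839). Cp, the ferroxidase ceruloplasmin, had a level of 1.98, 2.20, 1.96 and 1.83 in IRI+Hemin and of 0.51, 0.18, 0.04 and 0.40 in IRI, again apart on all arrays. It differed by 1.71 ± 0.25 (adjusted p = 5.82e-05), and by 0.34 with hemin alone (adjusted p = 0.308). Over the 23 tested genes of heme breakdown and iron handling, 5 were higher and 5 lower, with a median of -0.03, beside 26.1% and 18% of all genes. The lower count was 2 without IRI 2, 3 without IRI+Hemin 4 or in the 8 arrays alone, 2 with normexp, and none with the deposited matrix or without normalization. Those named beyond these include Slc40a1 (0.43), the iron exporter ferroportin, and Slc39a14 (-0.69), a zinc and iron importer. The ferritin chains Fth1 and Ftl1, the transferrin receptor Tfrc and the biliverdin reductase Blvrb did not pass.

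Among the regulators and targets of NRF2, the factor that drives Hmox1 and glutathione genes, 5 of 24 were higher and 7 lower. With normexp 4 were lower, with the deposited matrix 3, and without normalization 2 were lower and 6 higher. Cbr3 (1.65 ± 0.38, adjusted p = 0.00223), a carbonyl reductase, Keap1 (1.15, adjusted p = 6.29e-05), the inhibitor of NRF2, and Gclc (0.91, adjusted p = 0.00671), the catalytic subunit of glutathione synthesis, were higher. Gclm, the modifier subunit of the same enzyme, was lower (-1.26 ± 0.19, adjusted p = 7.16e-05): it stood at 1.23, 1.13, 1.23 and 1.53 in IRI+Hemin and at 2.62, 2.46, 2.68 and 2.37 in IRI. The 2 subunits of this enzyme therefore differed in opposite directions. Gsr, glutathione reductase, was also lower (-1.32 ± 0.18, adjusted p = 4.03e-05). Nfe2l2, which encodes NRF2, differed by -0.09 (adjusted p = 0.67), and Nqo1 and Srxn1 did not pass.

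Of 17 cytokines and chemokines tested, 9 were lower in IRI+Hemin, beside 18% of all genes, and 1 was higher, with a median of -1.04, and 7 of the 9 were at least 2-fold lower. Csf3 and Tnf entered the test only through the IRI arrays, where they are high. Without them 7 of 15 were lower, beside 19.1%, and 6 of these at least 2-fold. The lower count was 6 with the deposited matrix and 5 without normalization between arrays. In Hemin against Control, where 17.5% of all genes were lower and 18.4% higher, the same list had 1 lower and 2 higher. Not all 17 could be tested there. Il6, for example, was not well above background on any Control or Hemin array, so this count covers fewer members. The summed signal of 18 leukocyte markers, of which 1 was not above background on any of the 8 arrays, was 4.92 to 12.7 times the 75th percentile in IRI+Hemin and 5.70 to 10.7 times in IRI, so the ranges overlapped. Of 15 leukocyte markers tested, none was higher and 2 were lower, among them Nkg7 (-1.15) of cytotoxic cells, while the defining genes Ptprc, Cd68 and Itgam did not pass.

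Ccl2, the main monocyte chemoattractant, stood at -0.53, 0.79, -0.25 and -0.22 in IRI+Hemin and at 2.61, 1.79, 1.74 and 1.91 in IRI. All 4 IRI+Hemin arrays were below all 4 IRI arrays, yet every one was above the Control mean of -2.82. In IPC+IRI, which had no hemin, Ccl2 stood at -1.48, 1.49, 0.72 and -0.11, also below all IRI arrays. The difference was -2.06 ± 0.46 (adjusted p = 0.00158), or 4.18-fold lower. The hemin difference without ischemia was 0.28 (adjusted p = 0.662), and the interaction was -2.34 ± 0.65 (adjusted p = 0.0322). This interaction call was lost without IRI 1 (-2.14, adjusted p = 0.0646), without IRI+Hemin 1, 3 or 4 (-2.18 to -2.29, adjusted p up to 0.0601) and without Control 1 or 3 or Hemin 3 (adjusted p up to 0.0738). It was lost too with normexp (-1.55, adjusted p = 0.137), with the deposited matrix and without normalization.

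Csf1, the growth factor of macrophages, had levels of 0.72, 1.26, 0.65 and 0.97 in IRI+Hemin and of 2.42, 2.06, 2.06 and 2.21 in IRI. The groups did not overlap, and the difference was -1.29 ± 0.21 (adjusted p = 0.000149). In IPC+IRI, Csf1 stood at 0.38, 1.28, 1.63 and 0.87, below all IRI arrays as well. Its interaction of -1.06 (adjusted p = 0.0358) was lost without any of IRI 1 or 4, IRI+Hemin 1 or 3, Control 2, 3 or 4 and Hemin 3 or 4 (adjusted p up to 0.0781). It was lost as well in 7 of 11 other alternatives, the replicate block (adjusted p = 0.0612) and normexp (-0.87, adjusted p = 0.116) among them. Il6, a pleiotropic cytokine of the acute phase, stood at -3.45, -1.61, -2.31 and -3.02 in IRI+Hemin and at -0.65, -1.13, -1.10 and -0.28 in IRI. All IRI+Hemin arrays lay below all IRI arrays (-1.81 ± 0.46, adjusted p = 0.00405). It was not well above background on any Control or Hemin array.

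Ccl5, a chemokine for T cells, varied within the IRI group, with 1.46, 2.03, -0.72 and -1.23 against -2.38, -2.21, -2.63 and -1.35 in IRI+Hemin. The lowest IRI array lay just above the highest IRI+Hemin array, and the difference was -2.53 ± 0.64 (adjusted p = 0.00431). Il11 (-0.98, adjusted p = 0.00261) was lower by less, and with hemin alone as well (-1.22, adjusted p = 0.000852), but not without normalization between arrays (adjusted p = 0.107). Tnf was well above background on 3 IRI arrays and 2 IRI+Hemin arrays, and stood at -5.97, -5.48, -5.98 and -4.53 against -4.78, -4.54, -4.56 and -4.29. The groups overlapped, and its call (-0.95, adjusted p = 0.00821) was lost without normalization (adjusted p = 0.0722). Csf3, the granulocyte growth factor, was well above background on 3 IRI arrays, through which it was tested, and on 1 IRI+Hemin array. Its levels of -7.38, -4.31, -6.53 and -6.34 against -2.54, -2.67, -5.93 and -4.01 overlapped, and its call (adjusted p = 0.00821), 1 of the 9 lower, was lost in a fit of the 8 arrays alone (adjusted p = 0.0546). Ccl7 and Il1b passed with all arrays (-2.42, adjusted p = 0.0337, and -1.40, adjusted p = 0.032) but had overlapping groups. The call of Ccl7 was lost without IRI 1 (-1.74, adjusted p = 0.126) or IRI 4, and without IRI+Hemin 1, 3 or 4 (adjusted p up to 0.0877). That of Il1b was lost without IRI 1 or 2 (-1.08 and adjusted p = 0.109 without IRI 2) and without IRI+Hemin 1, 3 or 4 (adjusted p up to 0.1).

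The neutrophil chemokines did not pass the test. Cxcl1 stood at 2.46, 2.00, 2.99 and 2.00 in IRI+Hemin and at 1.75, 2.75, 2.24 and 2.27 in IRI, a difference of 0.11 (adjusted p = 0.881), and Cxcl2 differed by -0.73 (adjusted p = 0.332). The 1 list member that was higher, Cx3cl1, was higher with hemin in both pairs (0.57 and 0.52) and did not pass with the deposited matrix. A CX3C chemokine, Cx3cl1 is made by endothelium and epithelium as a membrane-bound adhesion molecule.

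**Figure D1:**
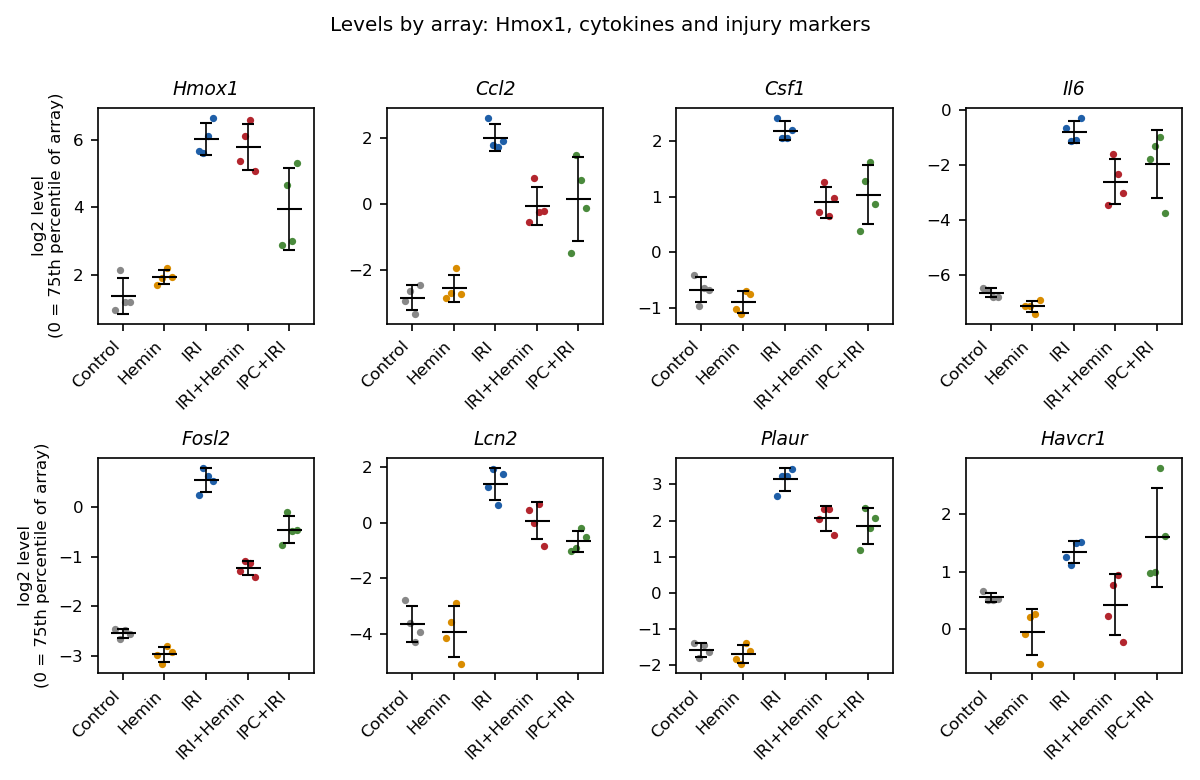
Log2 level (y axis, 0 = 75th percentile of the array; scales differ between panels) of Hmox1, 3 cytokine genes, the AP-1 factor Fosl2 and 3 injury-associated genes in the 5 groups. Points are arrays, the long dash is the mean and the bars are ± SD over 4 arrays. Hmox1 overlaps between IRI and IRI+Hemin, whereas the other 7 genes have lower means in IRI+Hemin, with an overlap of the arrays in Lcn2 alone.

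Tubular injury markers moved in both directions. Of 25 tested, 7 were lower and 3 higher, with a median of -0.49, beside 18% and 26.1% of all genes. It was 3 lower without IRI 4 and 4 without IRI+Hemin 1 or 4. With the deposited matrix 3 were lower, and without normalization none was, although 4 were then higher. Plaur, the urokinase receptor, stood at 2.04, 2.32, 2.32 and 1.59 in IRI+Hemin and at 2.67, 3.23, 3.22 and 3.43 in IRI, with no overlap and a difference of -1.07 ± 0.23 (adjusted p = 0.00115). Havcr1, which encodes the injury marker KIM-1, was lower by 0.92 ± 0.33 (0.23, 0.77, 0.94 and -0.23 against 1.26, 1.12, 1.49 and 1.51, adjusted p = 0.0306). Its call was lost without IRI 3 or 4 and without IRI+Hemin 1 or 4 (-0.70 and adjusted p = 0.107 without IRI+Hemin 4). Lcn2, which encodes NGAL, an iron-siderophore binding protein, stood at 0.47, -0.01, 0.69 and -0.82 in IRI+Hemin and at 1.29, 1.94, 0.63 and 1.77 in IRI. The difference was -1.32 ± 0.43 (adjusted p = 0.0198) with a slight overlap. Without IRI 2 or 4 or IRI+Hemin 4 it did not pass (-1.02 and adjusted p = 0.0737 without IRI+Hemin 4).

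The higher markers were 2 fibrinogen chains, described below, and Tnfrsf12a, the TWEAK receptor (0.99 ± 0.24, adjusted p = 0.00323), which was higher in Hemin than in Control too (0.79, adjusted p = 0.0171). The members Krt20 and Cdkn1a did not pass, with array means far above Control in both groups: Krt20, an injury-induced keratin, differed by -0.36 (adjusted p = 0.746) and Cdkn1a, a cell cycle inhibitor, by -0.55 (adjusted p = 0.127). In the endothelial list 5 of 26 were lower and 5 higher, near the shares of all genes. The leukocyte-capturing selectin Selp (-1.34 ± 0.32, adjusted p = 0.00278) and the junction cadherin Cdh5 (-1.30 ± 0.28, adjusted p = 0.00117) were lower. Sele, E-selectin, was well above background on 3 IRI arrays, through which it was tested, and on 1 IRI+Hemin array. Its call (adjusted p = 0.0446) was lost in a fit of the 8 arrays alone (adjusted p = 0.0617), without normalization (adjusted p = 0.181) and without IRI+Hemin 2, 3 or 4 (-1.32 and adjusted p = 0.091 without IRI+Hemin 3). The VEGF receptors Flt1 (1.08 ± 0.22, adjusted p = 0.000893) and Kdr (0.73 ± 0.17, adjusted p = 0.00279) were higher, but neither passed when the log2 values of their probes were averaged (0.21 and 0.17). These averages take in probes of both genes that were not well above background on any of the 8 arrays. The brighter probes gave 1.30, 0.56 and 0.58 for Flt1 and 0.73 for Kdr.

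Of 24 immediate early and AP-1 factors, 9 were lower and 1 was higher, with a median of -0.66, beside 18% and 26.1% of all genes. With the deposited matrix 7 were lower (9.61% of all genes), and without normalization 4 (3.35%). Fosl2, a Fos family member, had the smallest p. It stood at -1.28, -1.09, -1.13 and -1.41 in IRI+Hemin and at 0.23, 0.79, 0.62 and 0.51 in IRI. The groups were more than 1 log2 unit apart at their nearest arrays, and the difference was -1.76 ± 0.14 (adjusted p = 3.99e-07), or 3.4-fold lower. In IPC+IRI, Fosl2 stood at -0.77, -0.11, -0.48 and -0.47. Hemin alone gave -0.42 (adjusted p = 0.0244), and the interaction was -1.34 ± 0.20 (adjusted p = 0.000476), a call made in every alternative that was run.

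Fosl1 was lower by 1.15 ± 0.27 (adjusted p = 0.00238). Myc, a growth-driving factor, stood at 1.12, 0.70, 1.19 and 1.64 in IRI+Hemin and at 2.62, 3.102, 2.98 and 2.79 in IRI. It was lower by 1.71 ± 0.26 (adjusted p = 7.09e-05), and by 1.40 without ischemia (adjusted p = 0.000658, interaction adjusted p = 0.678). Zfp36, which destabilises cytokine mRNAs, was lower in both pairs too (-1.59 with ischemia and -1.35 without). Fos itself passed by a narrow margin (-1.74 ± 0.67, adjusted p = 0.0437) and did not pass without IRI 2, 3 or 4 or IRI+Hemin 1, 2 or 3 (adjusted p up to 0.139, -1.33 without IRI 2). Its call was also lost with the replicate block (adjusted p = 0.0604), quantile normalization (0.0532), no filter (0.0513), the deposited matrix (0.0723) and no normalization (0.0976). Klf4, a Krüppel-like factor, was the higher member (0.97, adjusted p = 0.00802), and Junb did not differ beyond its spread (-0.00 ± 0.22, adjusted p = 0.999).

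MAP kinases and their phosphatases, the layer that relays stress signals to these factors, had 13 of 30 genes lower and 2 higher, with a median of -0.44, beside 18% and 26.1% of all genes. In Hemin against Control 7 were lower and 3 higher, beside 17.5% and 18.4%. Without normalization between arrays 4 were lower, and with the deposited matrix 8. Rap2b, a Ras-related GTPase, stood at -4.49, -4.02, -3.73 and -6.43 in IRI+Hemin and at -1.99, -1.81, -1.59 and -1.67 in IRI, and 1 of its 4 IRI+Hemin arrays was not well above background. It was lower by 2.90 ± 0.45 (adjusted p = 9.32e-05). The interaction was -2.35 (adjusted p = 0.0302), and was lost without IRI 3 (-2.29, adjusted p = 0.0546), Control 2, Hemin 1 or Hemin 4 (adjusted p up to 0.061). It was also lost with the replicate block (adjusted p = 0.0585), the deposited matrix (-1.38, adjusted p = 0.0867), no normalization (adjusted p = 0.106) and normexp (-0.80, adjusted p = 0.0509). Map3k8, a kinase of the TNF and Toll pathways, was lower by 1.66 ± 0.33 (adjusted p = 0.000691), and Map2k6, an activator of p38, by 1.22 ± 0.21 (adjusted p = 0.000211), although 1 of the 3 Map2k6 probes was higher (0.48). Dusp1, the phosphatase that inactivates p38 and JNK, stood at 3.19, 3.36, 3.18 and 3.26 in IRI+Hemin and at 4.32, 5.10, 4.44 and 4.18 in IRI. It was lower by 1.26 ± 0.29 (adjusted p = 0.00216), and by 1.09 with hemin alone (adjusted p = 0.00804).

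Promoter sequence was searched for all lists and both directions, for the E-box, the D-box and the antioxidant response element beside the 2 motifs given here. Those are the elements that bind CREB (CRE, searched as TGACGTCA) and AP-1 (searched as TGANTCA), for which immediate early and inflammatory genes are known. They are described mainly for the lower genes of these groups. In the RefSeq promoter windows of GRCm38.p6, which reach from upstream of a gene's start to just past it, the CRE letters were found on either strand in 1.88% of 27025 genes and the AP-1 letters in 7.93%. Of the 13 lower MAP kinase and phosphatase genes, 11 had a promoter in the table and 3 of these held the CRE letters, Dusp1, Dusp8 and Braf. Of the 9 lower cytokines, 5 had one and 1 held the AP-1 letters, Il6. The 2 lower selectins held the AP-1 letters among 3 lower endothelial genes with a promoter, and of 5 lower immediate early factors with a promoter none held either. In other lists, the CRE letters were in 2 of 6 lower cell cycle genes and 2 of 11 higher ribosomal protein genes with a promoter. They were in 1 of 11 lower unfolded protein response genes and 0 of 18 lower actin genes. The antioxidant response element was in 3 of the 11 lower MAP kinase and phosphatase genes, beside 12.5% of all genes. A match describes the letters in the window and says nothing on binding. The 3 stretches below are shown for lower genes named above and for the growth factor gene Areg (-0.92, adjusted p = 0.019), with the motif in capitals, each 5′ to 3′ on the strand of the gene.
Dusp1, minus strand, chr17:26508563-26508660: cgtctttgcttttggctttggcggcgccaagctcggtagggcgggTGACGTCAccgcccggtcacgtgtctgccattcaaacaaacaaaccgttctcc
Areg, plus strand, chr5:91139493-91139590: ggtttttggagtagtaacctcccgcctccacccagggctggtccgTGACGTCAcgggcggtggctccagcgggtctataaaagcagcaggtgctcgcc
Il6, plus strand, chr5:30012864-30012916: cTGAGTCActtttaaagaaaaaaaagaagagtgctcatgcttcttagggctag
The call of Areg was lost without IRI 4 (-0.80, adjusted p = 0.057) and without IRI+Hemin 1 (-0.57, adjusted p = 0.0712).

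The unfolded protein and integrated stress response had 13 of 28 genes lower and 1 higher (median -0.26), beside 18% and 26.1% of all genes. With hemin alone 6 were lower and 5 higher, near the 17.5% and 18.4% of all genes, and without Control 2 it was 6 lower and 8 higher. Without normalization 4 were lower, and with the deposited matrix 6. Pdia4, a disulfide isomerase of the endoplasmic reticulum, stood at 0.52, 0.27, 0.03 and 0.59 in IRI+Hemin and at 2.16, 2.46, 2.33 and 1.60 in IRI. It was lower by 1.79 ± 0.21 (adjusted p = 1.06e-05), and by 1.11 with hemin alone. Atf4, the central factor of the integrated stress response, was lower by 0.79 ± 0.22 (adjusted p = 0.00793) with its lowest IRI array inside the IRI+Hemin range, a call lost without normalization (-0.43, adjusted p = 0.317) and with the deposited matrix (-0.59, adjusted p = 0.0673). Trib3, a target of Atf4, was lower by 1.25 ± 0.38 (adjusted p = 0.0132), at 0.11, -0.61, -0.71 and -0.62 against 0.30, 0.99, 0.80 and 1.10, and was not called without normalization (adjusted p = 0.145). The interaction was -1.21 for Atf4 (adjusted p = 0.0236) and -1.84 for Trib3 (adjusted p = 0.0439), and both were lost with normexp, with the deposited matrix and without normalization. That of Trib3 was lost in 7 of 10 other settings in all, the replicate block among them. It was lost too without any single array of the 4 groups except IRI 1 and IRI+Hemin 1 (adjusted p up to 0.082). The interaction of Atf4 was lost without Hemin 3 (adjusted p = 0.057). Nars and Dnajb9, an aminoacyl-tRNA synthetase and a chaperone, were lower by 1.40 and 1.35. The marker chaperone Hspa5 and the death-linked factor Ddit3 did not pass.

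Of 26 genes of fatty acid oxidation and ketone body synthesis 12 were higher, beside 26.1% of all genes, and 3 lower, with a median of 0.38 beside 0.08 over all genes. Leaving out single arrays gave 10 to 12 higher genes. In Hemin against Control, 4 were higher and 7 lower, beside 18.4% and 17.5% of all genes, with a median of -0.06.

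Hacl1, a peroxisomal lyase of branched fatty acids, was at -1.49, -1.59, -1.90 and -0.71 in IRI+Hemin and at -3.97, -4.08, -3.66 and -5.13 in IRI, 1 of which was not well above background. The Control mean was -0.93, and the difference between the ischemic groups was 2.79 ± 0.31 (adjusted p = 6.04e-06). Hacl1 was at -1.40, -1.58, -2.38 and -1.30 in IPC+IRI, which had no hemin. Its interaction was 2.63 ± 0.44 (adjusted p = 0.00143), and with normexp background correction neither the difference (0.60, adjusted p = 0.0848) nor the interaction passed. Ppargc1a, which encodes PGC-1α, a coactivator of mitochondrial genes, stood at 1.66, 2.12, 2.14 and 2.47 in IRI+Hemin and at 0.42, 0.27, 0.43 and 0.43 in IRI. The IRI mean of 0.39 was below, and the IRI+Hemin mean of 2.10 above, the Control mean of 1.25. In IPC+IRI, Ppargc1a stood at 2.27, 1.66, 1.69 and 1.33. The difference was 1.71 ± 0.19 (adjusted p = 5.86e-06), 0.67 and 2.28 by probe, and the interaction of 1.51 ± 0.27 (adjusted p = 0.00228) was called in every alternative that was run.

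Cyp4a14, a fatty acid omega-hydroxylase, differed by 2.78 ± 0.73 (adjusted p = 0.00516), at 6.19, 4.64, 5.39 and 4.71 against 3.51, 1.48, 2.57 and 2.26. Acot1, an acyl-CoA thioesterase, rose by 1.40 ± 0.25 (adjusted p = 0.000273) and Ehhadh, a peroxisomal bifunctional enzyme, by 0.71 ± 0.17 (adjusted p = 0.00337). Fabp1, the liver-type fatty acid binding protein, was higher by 1.28 ± 0.37 (adjusted p = 0.00971), but by 0.028 with normexp (adjusted p = 0.929). Several of these are known targets of PPARα, whose gene Ppara did not pass (0.36, adjusted p = 0.209). Cpt1a, the gate of fatty acids into mitochondria, was lower by a small amount (-0.46 ± 0.16, adjusted p = 0.0244), likewise with hemin alone (-0.50), and was not called without IRI 3 or without IRI+Hemin 2 or 4 (-0.38 to -0.43, adjusted p up to 0.0767).

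In tryptophan, phenylalanine and tyrosine metabolism 4 of 18 genes were higher and 3 lower, near the 26.1% and 18% of all genes. Ddc, the decarboxylase that makes renal dopamine, stood at 3.44, 2.93, 3.05 and 2.91 in IRI+Hemin and at 1.10, 1.15, 1.30 and 1.36 in IRI. The groups were far apart, and the difference was 1.85 ± 0.18 (adjusted p = 2.6e-06), or 3.62-fold. The Control mean was 2.53, between both groups as for Alas1 and Ppargc1a. Ddc was at 2.59, 2.28, 2.35 and 2.60 in IPC+IRI. The hemin difference without surgery was 0.33 (adjusted p = 0.163), and the interaction of 1.52 ± 0.26 (adjusted p = 0.00144) was lost without normalization between arrays (1.32, adjusted p = 0.129). Kynu, kynureninase, was higher by 1.74 ± 0.25 (adjusted p = 4.8e-05), but at levels between -2.40 and -4.87 it reversed with normexp (-0.03). Abp1, the diamine oxidase now named Aoc1 (1.80 ± 0.54, adjusted p = 0.0115), and Hpd of tyrosine breakdown (0.94 ± 0.23, adjusted p = 0.00351) were higher too. The interaction of Hpd (1.19, adjusted p = 0.0325) was lost without any of IRI 1 or 2, IRI+Hemin 2 or 3, Control 1 or 4 and Hemin 1, 2 or 3 (adjusted p up to 0.0751), without normalization and without the filter, and the study chose Ddc, Abp1 and Kynu on these same samples.

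Among 27 genes of a list of cytochrome P450 and arachidonic acid metabolism 3 were higher and 6 lower, beside 26.1% and 18%. The P450 genes Cyp4a14 and Cyp3a11, which were higher too, were not in this list. Its 3 higher members were the near-identical paralogs Cyp2b9, Cyp2b10 and Cyp2b13 (1.78, 1.70 and 1.30), whose probes may share transcripts. All 3 were dim, Cyp2b10 entered the test through the IRI+Hemin arrays alone, and with normexp Cyp2b10 and Cyp2b13 reversed (-0.06 and -0.21) and Cyp2b9 was not called (0.29, adjusted p = 0.373). Cyp2b9 was not called without IRI 3 or 4 or IRI+Hemin 1 or 4 (adjusted p up to 0.0836). Nr1i3, the receptor CAR that is known to drive Cyp2b genes, was not well above background on any IRI array but on all 4 IRI+Hemin arrays (-2.78, -2.74, -3.49 and -2.89), at least 4.64-fold higher. It entered the test only through IRI+Hemin, where it is high, so its adjusted p (2.6e-05) is that of a gene chosen by its high group. Without ischemia it was well above background on all 4 Hemin arrays and on no Control array, so no exact difference is given there. With normexp its difference with ischemia was 0.03. Ptgs2, inducible cyclooxygenase, was lower by 1.53 ± 0.46 (adjusted p = 0.0126), at -4.67, -4.34, -4.20 and -3.60 against -3.26, -3.19, -2.67 and -1.57, a call lost without IRI 4 (-1.16, adjusted p = 0.0513).

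**Figure D2:**
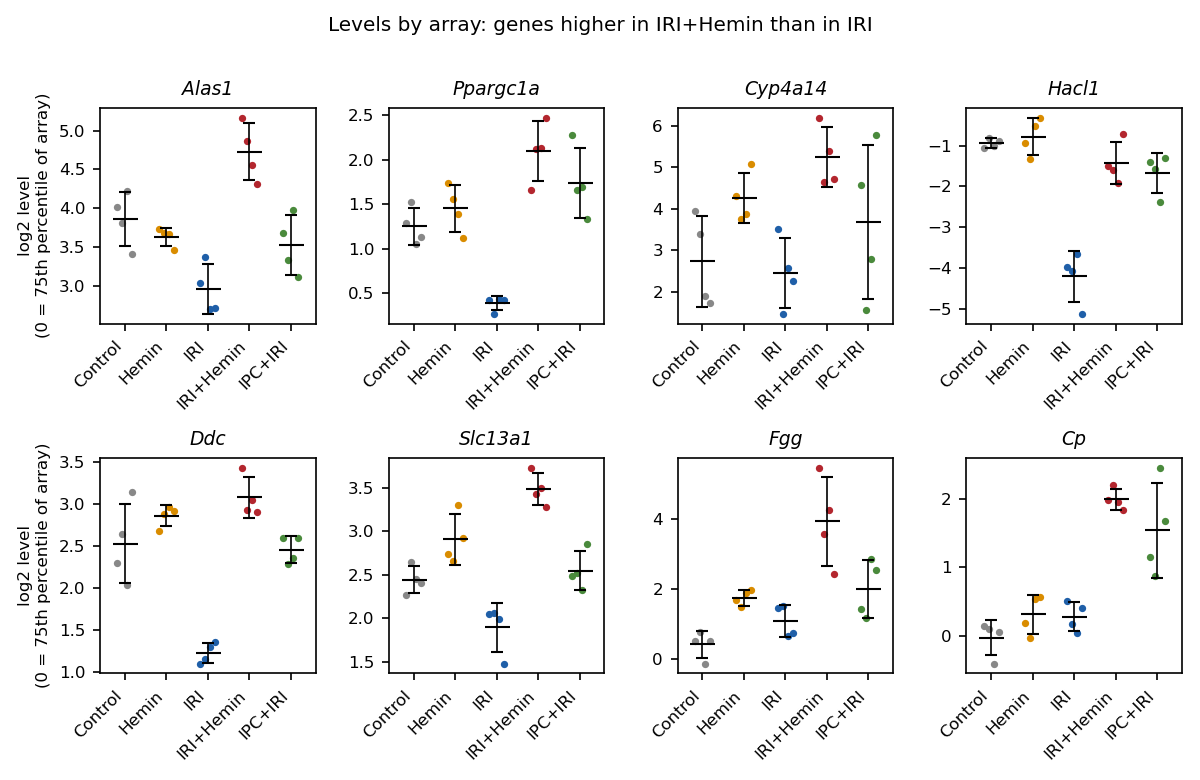
Log2 level (y axis, 0 = 75th percentile of the array; scales differ between panels) of 8 genes that were higher in IRI+Hemin than in IRI, in the 5 groups. Points are arrays, the long dash is the mean and the bars are ± SD over 4 arrays. Every IRI+Hemin array lies above every IRI array, and for Alas1, Ppargc1a, Cyp4a14, Ddc and Slc13a1 the Control mean lies between those of both groups.

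Of 18 acute phase genes 8 were higher, beside 26.1% of all genes, 2 were lower and 8 did not pass, with a median of 1.00. Without 3 members measured well in IRI+Hemin alone, 7 of 15 were higher, beside 24.2%, with a median of 0.81. Fgg, the gamma chain of fibrinogen, stood at 5.45, 3.56, 4.23 and 2.43 in IRI+Hemin and at 1.46, 1.52, 0.68 and 0.75 in IRI. No arrays overlapped, the difference was 2.82 ± 0.48 (adjusted p = 0.000196), and hemin alone gave 1.33 (adjusted p = 0.0382). Fgb, the beta chain, followed at a lower level (1.78, 0.35, 0.77 and -0.995 against -1.22, -0.91, -1.65 and -1.81), with IRI+Hemin 4 inside the IRI range and a difference of 1.88 ± 0.45 (adjusted p = 0.00282). In both genes IRI+Hemin 1 was the highest array and IRI+Hemin 4 the lowest.

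Apob, an apolipoprotein, was higher by 1.68 ± 0.31 (adjusted p = 0.000367), with 5 probes that ranged from 0.96 to 2.22. C3, the central complement component, was at 2.12, 2.04, 1.72 and 2.64 against 1.54, 0.26, 0.10 and 0.18. It was higher by 1.61 ± 0.55 (adjusted p = 0.0253), a call lost without IRI 2, 3 or 4 or IRI+Hemin 4 (1.44 to 1.52, adjusted p up to 0.0667). Saa3, a serum amyloid A, was well above background on 3 IRI+Hemin arrays and on no IRI array, at least 2.61-fold higher. It too entered the test only through IRI+Hemin, where it is high. Its call (adjusted p = 0.0406) was lost in a fit of the 8 arrays alone, without IRI 2, 3 or 4 (2.10 to 2.33, adjusted p up to 0.106), and it reversed with normexp (-0.02). Of 7 liver markers tested, Apob, Cyp3a11 (1.37) and Apoa1 (1.06) were higher and Alb and Ttr did not pass. Of the 3, Apob alone was measured well in both groups. The summed signal of 9 liver markers was 3.68 to 6.22 times the 75th percentile in IRI+Hemin and 2.26 to 3.97 in IRI, and its part in these values was not tested.

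**Figure D3:**
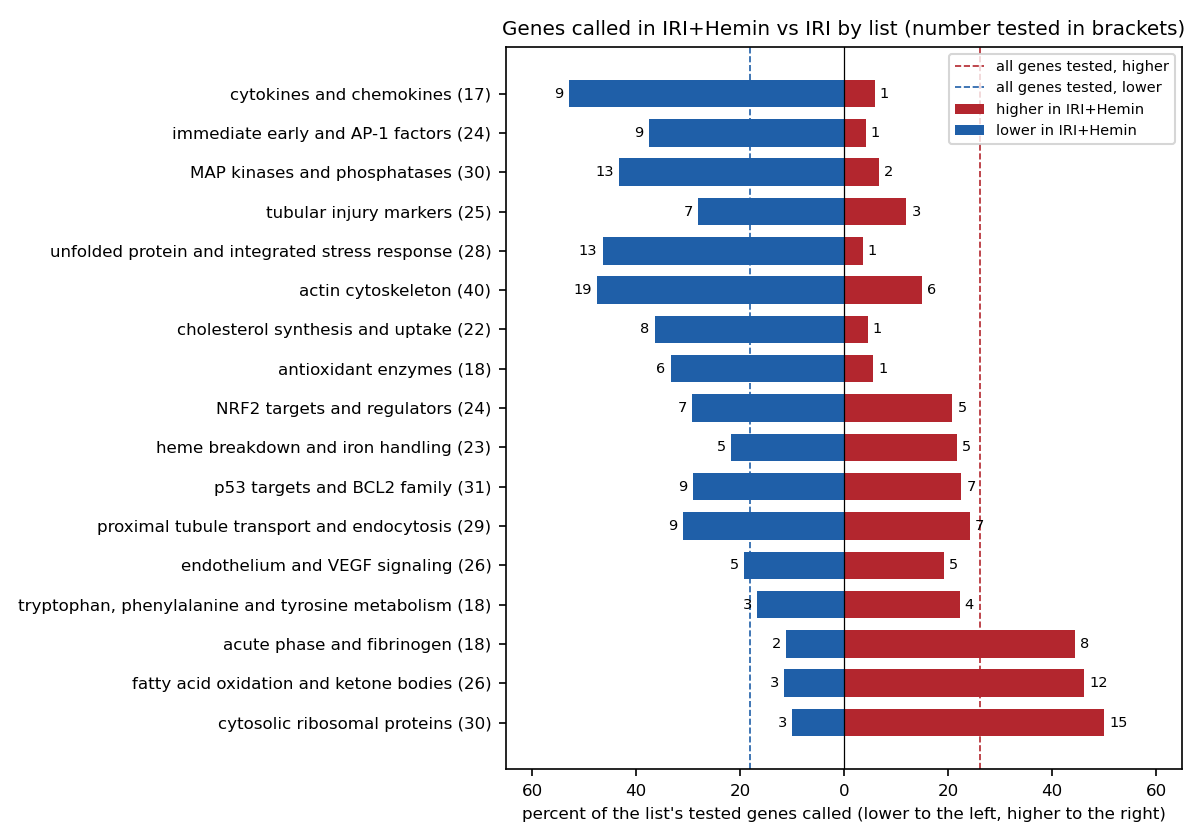
Percent of the tested genes of 17 lists that were lower (blue, left) or higher (red, right) in IRI+Hemin (adjusted p below 0.05 against IRI); the number of genes stands at each bar and the number tested in brackets. Dashed lines mark the share of all 17835 genes, 18% lower and 26.1% higher. Cytokines reach beyond the left line with 9 of 17 (7 of 15 without Csf3 and Tnf, which were measured well in IRI alone), as do actin genes with 19 of 40, and ribosomal proteins reach beyond the right with 15 of 30.

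Transporters differed gene by gene. In the proximal tubule list 7 of 29 were higher and 9 lower. Slc13a1, the sulfate transporter of the brush border, stood at 3.74, 3.44, 3.502 and 3.28 in IRI+Hemin and at 2.04, 2.06, 1.99 and 1.48 in IRI. The difference was 1.59 ± 0.16 (adjusted p = 3.4e-06), and the interaction was 1.13 ± 0.23 (adjusted p = 0.00608), lost without normalization (0.93) and with the mean over probes (1.11). Slc7a12, an amino acid transporter, was higher by 3.55 ± 0.56 (adjusted p = 0.000107), or 11.7-fold, and by 1.52 with hemin alone (adjusted p = 0.0425). The organic anion transporters Slco1a1 (-1.70 ± 0.28, adjusted p = 0.000142) and Slc22a8 (-1.35 ± 0.20, adjusted p = 6.82e-05) were lower, both with and without ischemia (-1.12 and -1.59 without). The phosphate transporter Slc34a1 (-0.91) and the sodium-proton exchanger Slc9a3 (-1.08) were among the lower genes, and the endocytic receptor Lrp2 (0.34) among the higher.

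From thick limb to collecting duct 9 of 25 were lower and 5 higher. Among the lower genes were Trpm6 (-1.13 ± 0.15, adjusted p = 2.14e-05), a magnesium channel, Pvalb (-1.67 ± 0.28, adjusted p = 0.00017), a calcium buffer, and Kl (-1.08), the FGF23 coreceptor Klotho. Trpm6 stood at -2.78, -2.84, -2.61 and -2.61 in IRI+Hemin and at -1.72, -1.39, -1.70 and -1.49 in IRI. Cldn10 (1.06, adjusted p = 0.000576), a claudin of the thick limb, was higher with hemin in both pairs (0.99 without ischemia). Umod, Slc12a1, Slc12a3 and Aqp2, which mark the segments, did not pass.

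Among growth factor ligands and receptors 4 of 27 were higher, 2 of them measured well in IRI+Hemin alone, and 10 lower, beside 26.1% and 18% of all genes. With the deposited matrix 4 were lower, and without normalization 1 was lower and 6 were higher. Fgf18, a fibroblast growth factor, stood at 0.96, 1.44, 0.84 and 0.49 in IRI+Hemin and at -2.20, -1.15, -1.47 and -1.75 in IRI. The difference was 2.58 ± 0.31 (adjusted p = 1.17e-05), or 5.96-fold. Fgf18 stood at -1.10, -0.82, -0.26 and -1.39 in IPC+IRI. Hemin alone gave 0.07, and the interaction of 2.50 ± 0.44 (adjusted p = 0.00208) was called in every alternative that gave a value. In the IL-6 and JAK-STAT list 5 of 18 were higher and 3 lower. The prolactin receptor Prlr (1.75 ± 0.39, adjusted p = 0.00182) and the kinase Tyk2 (1.22 ± 0.20, adjusted p = 0.000177) were higher, and Stat5a was lower (-1.13 ± 0.14, adjusted p = 1.07e-05). Stat3, which carries the IL-6 signal, was higher by 0.57 (adjusted p = 0.0247), but not without IRI 4 (0.36, adjusted p = 0.0948) or IRI+Hemin 1 (0.55, adjusted p = 0.0521). Socs3, its feedback inhibitor, did not pass (-0.51, adjusted p = 0.167).

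A further set of genes differed with hemin in the same direction with and without ischemia. Sod3, extracellular superoxide dismutase, stood at -1.01, -0.92, -0.97 and -0.61 in IRI+Hemin and at 1.98, 1.69, 2.00 and 2.30 in IRI. It was lower by 2.87 ± 0.29 (adjusted p = 2.77e-06), or 7.3-fold, and by 2.35 in Hemin against Control (adjusted p = 4.9e-05). In IPC+IRI, which had no hemin but was scanned on the day of the Hemin group, its mean was -1.48. Cat, catalase, was lower by 1.44 ± 0.17 (adjusted p = 8.3e-06) with ischemia and by 1.32 without, and its mean in IPC+IRI was 4.63, as in IRI+Hemin. In the list of antioxidant enzymes 6 of 18 were lower and 1 was higher, and Sod1, Sod2 and Gpx1 did not pass. With normexp 3 were lower and 4 higher, and without normalization 2 were lower and 6 higher. In the 8 arrays alone 3 were lower, and with the deposited matrix 1.

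Pfn1, profilin, which loads actin monomers, was at 0.40, 0.37, 0.23 and -0.16 in IRI+Hemin and at 2.82, 2.93, 3.01 and 2.58 in IRI. The difference was -2.63 ± 0.26 (adjusted p = 2.45e-06), and -2.11 in Hemin against Control. Its mean was 0.13 in Hemin, 0.21 in IRI+Hemin and 0.25 in IPC+IRI, so that these 3 groups, all scanned later, lay together. The Control arrays, scanned on the day of IRI, stood at 2.50, 1.10, 2.69 and 2.68. The part of the scan day was not tested. The formin Fmnl1 (-2.82 ± 0.38), the GTPase Rhob (-2.12 ± 0.22) and the membrane linker Msn (-1.64 ± 0.30) were lower, with adjusted p of 2.6e-05, 3.4e-06 and 0.000336, and were lower without ischemia too (-2.08, -1.57 and -1.12). Of 40 actin cytoskeleton genes 19 were lower and 6 higher, beside 18% and 26.1% of all genes, and 15 and 5 with hemin alone, beside 17.5% and 18.4%. The lower count was 10 with the brightest probe of each gene, 11 with the deposited matrix and 4 without normalization. The higher count was 2 with the brightest probe and 3 in the 8 arrays alone.

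Ntn1, netrin 1, a guidance and anti-inflammatory ligand, stood at -2.43, -2.61, -2.56 and -2.36 in IRI+Hemin and at 0.02, 0.16, 0.17 and -0.16 in IRI (-2.54 ± 0.13, adjusted p = 2.25e-09). It was lower by 1.87 without ischemia (adjusted p = 2.17e-07), and the interaction of -0.66 (adjusted p = 0.0296) was lost in 9 of 11 other settings, the replicate block (adjusted p = 0.0542) and quantile normalization (0.0685) among them. Its 2 probes disagreed, at -2.81 and 0.25. Pawr, a pro-apoptotic factor, was lower by 2.52 ± 0.28 (adjusted p = 5.24e-06) and by 1.56 without ischemia. Cry1, a repressor of the circadian clock, was lower by 2.42 ± 0.33 (adjusted p = 3.02e-05). Only 1 Control array and no Hemin array measured Cry1 over background, so hemin alone was not tested for it. In the list of p53 targets and BCL2 family genes 7 of 31 were higher and 9 lower. It was 8 higher and 4 lower with the deposited matrix, and 9 and 3 without normalization. Bax, the pore-forming death effector, was higher by 1.32 ± 0.18 (adjusted p = 3.08e-05), and by 1.07 without ischemia. Apaf1, the core of the apoptosome, was lower by 1.22 (adjusted p = 0.00467), though one of its 3 probes gave -0.22.

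Slc4a7, a sodium bicarbonate cotransporter, had the largest fall among genes well above background on all 8 arrays whose groups did not overlap, -3.21 ± 0.50 (adjusted p = 9.11e-05). Its levels were 0.26, 0.20, -0.05 and 1.25 in IRI+Hemin and 3.56, 4.15, 4.199 and 2.59 in IRI. Only 1 of its 3 probes was lower, by 4.50, and the others were higher by 1.11 and 0.78. The first 30 of the 60 bases of each probe, with mm9 positions on the annotation of the array, are shown because they measure different stretches of the gene. The genome range of the second is longer than the probe itself.
Slc4a7 probe, difference -4.50, chr14:15572341-15572400: aaaggttcacgagtcggattcccctggttc
Slc4a7 probe, difference 1.11, chr14:15614734-15618862: atggttcttgcattagtctttgtgcgcaag
Slc4a7 probe, difference 0.78, chr14:15632300-15632359: gacctgatatttttcatctatatgaagtac
The value of the gene follows 1 probe, so a fall of all Slc4a7 transcripts cannot be read from it. Of 2815 called genes with 2 or more probes, 1929 (68.5%) had all probes on the same side.

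Both ribosomal RNA genes measured were higher than in IRI. LOC236598, the 28S rRNA now named Rn28s1, stood at -0.23, 0.43, -0.29 and -0.25 in IRI+Hemin and at -5.14, -4.01, -3.49 and -3.47 in IRI (3.94 ± 0.56, adjusted p = 4.56e-05). The summed signal of both rRNA genes, with Rn18s, was 151 to 204 times the 75th percentile in IRI+Hemin, 8.99 to 68.9 in IRI, 172 to 196 in Hemin, 171 to 266 in IPC+IRI and 23.6 to 215 in Control. Control 2 alone reached the range of the groups scanned later, with Rn18s at 7.74 against 4.55 to 5.14 in the other Control arrays and LOC236598 at -0.46 against -3.98 to -3.64. Lars2, a mitochondrial leucyl-tRNA synthetase, had the largest rise of the genes above background on all 8 arrays, 4.63 ± 0.77 (adjusted p = 0.000156), and was higher by 3.497 with hemin alone, or by 4.75 without Control 2. Its mean was 8.51 in IRI+Hemin, 8.72 in Hemin, 8.70 in IPC+IRI and 3.87 in IRI, and 3 Control arrays lay at 3.95 to 4.01 and Control 2 at 8.98. Of 30 cytosolic ribosomal protein genes 15 were higher and 3 lower, and 14 against 1 with hemin alone, beside 18.4% and 17.5% of all genes.

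Genes often used as references also differed. Hprt1 was at 4.29, 4.21, 4.22 and 4.26 in IRI+Hemin and at 3.40, 3.51, 3.30 and 3.40 in IRI (0.84 ± 0.16, adjusted p = 0.000408), with means of 4.07 in Hemin, 4.37 in IPC+IRI and 3.101 in Control. Ywhaz was lower by 1.48 (adjusted p = 3.88e-05), Gapdh by 0.72 (adjusted p = 0.000224), and Actb was higher by 0.94 (adjusted p = 0.0023). Of 13 such genes 6 were lower and 2 higher. The part of the scan day in these values cannot be told apart from that of hemin.

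**Figure D4:**
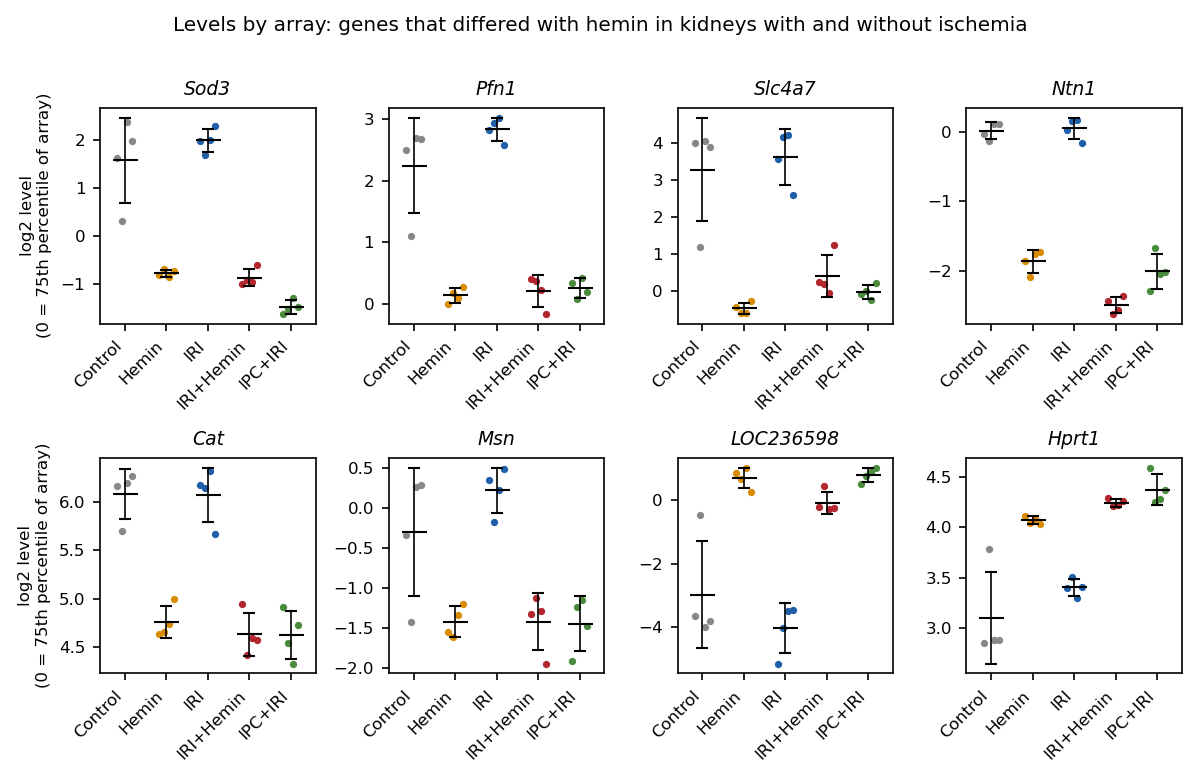
Log2 level (y axis, 0 = 75th percentile of the array; scales differ between panels) of 8 genes that differed with hemin in kidneys with and without ischemia, in the 5 groups. Points are arrays, the long dash is the mean and the bars are ± SD over 4 arrays. The IPC+IRI arrays, which had no hemin, lie nearer to the IRI+Hemin and Hemin arrays than to IRI in these 8 genes.

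**Figure D5:**
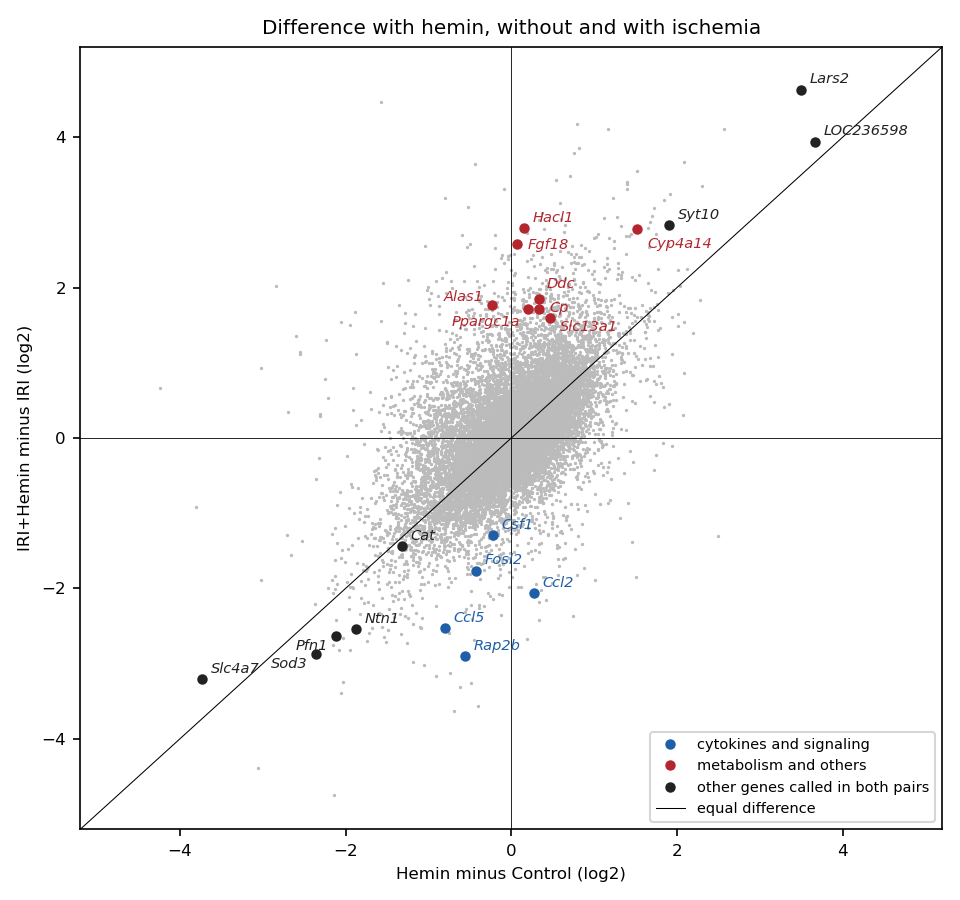
Difference of IRI+Hemin minus IRI (y axis, log2) against Hemin minus Control (x axis, log2) for 17835 genes (grey points, genes dim in Control and Hemin included), with 21 named genes in colour; the 2 axes share no array. Sod3, Pfn1, Slc4a7 and LOC236598 lie near the line of equal difference, whereas Ccl2, Rap2b, Hacl1, Fgf18 and Alas1 lie near 0 on the x axis.

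Among genes well above background on all 8 arrays whose groups did not overlap, the 10 largest rises beside Lars2, Slc7a12, Fgg and Cyp4a14 were those of Ddx25 (3.49), Syt10 (2.84), H1fx (2.74) and 3 transcripts known by array names alone, NAP030172-1 (3.19), TC1740216 (2.78) and NAP024224-001 (2.73). IPC+IRI minus IRI, without hemin, was 4.83 for Lars2, 3.65 for Slc7a12, 0.90 for Fgg and 1.22 for Cyp4a14. It was 2.15 for Ddx25, 2.29 for Syt10, 2.42 for H1fx, and 1.79, 2.39 and 2.10 for the 3 transcripts. NAP030172-1 stood at -1.44, -0.95, -1.001 and -0.52 in IRI+Hemin and at -4.30, -4.24, -4.40 and -3.72 in IRI, and had the smallest interaction p of the genes named here (3.99 ± 0.28, adjusted p = 2.26e-07). H1fx, a linker histone now named H1f10, had 1 probe at 2.77 and another at -0.46. Among the 10 largest falls, Ak3l1, the adenylate kinase now named Ak4, was lower by 3.12 ± 0.51 (adjusted p = 0.000145), with IRI+Hemin 2 at -3.02 and the other arrays of the group between -0.03 and 0.44. Adh6a, an alcohol dehydrogenase, was lower by 2.67 ± 0.29 (adjusted p = 5.11e-06), at -4.03, -3.50, -3.58 and -4.46 against -1.95, -0.87, -1.004 and -1.05. No Control array and 1 Hemin array measured Adh6a over background, so hemin alone was not tested here either. IPC+IRI minus IRI was -2.50 for Adh6a and -1.62 for Ak3l1.

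Of 8 skeletal muscle markers tested, 5 were higher, of which Trim55, a muscle ring finger protein, and Tnnt3 entered the test only through IRI+Hemin, where they are high. Without such members 3 of 5 were higher, beside 24.2% of all genes, among them Mylpf (1.02). Trim55 was measured clearly over background on 2 IRI arrays, and its difference of 4.17 was 1.42 with normexp. The summed signal of 12 muscle markers was 3.31 to 5.33 times the 75th percentile in IRI+Hemin, 1.63 to 2.59 in IRI, 4.21 to 5.90 in IPC+IRI and 2.39 to 3.45 in Hemin. Its part in other results was not tested.

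The study's own category genes were chosen on these samples, so their direction here is no independent evidence. Of 65 genes of its categories of higher genes, 48 were higher and 3 lower in the present fit, and 30 were higher with the brightest probe. Of 14 genes of its categories of lower genes 13 were lower, and of 6 genes under vascular smooth muscle contraction 4 were higher and 1 lower. Of the 7 genes with qRT-PCR assays, Hoxd4, a homeobox factor, was higher (1.61 ± 0.36, adjusted p = 0.00185), Fosl1 and Ccl5 were lower, and Hmox1, Cxcl1, Socs3 and Muc20 did not pass. Hoxd4 was at 0.29, 1.14, 0.92 and 0.84 in IRI+Hemin and at -0.75, -1.43, -1.42 and 0.34 in IRI, with a slight overlap, and was higher with hemin alone by 1.94 (adjusted p = 0.000786). The methods' t-test on the same values put these 3 genes below its threshold, and 2 of them, Fosl1 and Hoxd4, after Benjamini-Hochberg adjustment over the 7.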

How the data were processed

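Expression was measured in mouse kidney RNA on 20 1-colour Agilent arrays, 4 per group. Per the file headers, Agilent Feature Extraction (9.5.3.1 in the submitters' processing notes) gave the deposited processed signal, a background-subtracted intensity on a linear scale. The authors also deposited a log2 matrix, of which 18.1% of the values were blank. The filled values equalled log2 processed signal in 100% of cases (tolerance 0.001), so the matrix had not been scaled between arrays, and it was used only as an alternative. Array positions are on mm9. The annotation version behind the gene names is not given in the sources used here.

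Control spots and outlier spots marked by the scanner software were left out, spots of a probe were averaged, and log2 processed signal minus the 75th percentile of each array was taken for 41174 probes (43379 spots). Probes of a gene were combined on the linear scale over 27827 gene names, of which 17835 were tested: at most 1 value missing over the 8 arrays and well above background on at least 3 of the 4 arrays of a group. Of 17308 names with a current RefSeq symbol, 2485 differ from it. Groups were taken from the sample titles. The linear model of limma 3.58.1 (R 4.3.3) with all 5 groups gave moderated tests with Benjamini-Hochberg adjustment over all genes tested, at 0.05, and ± denotes the SE of a difference. The number of arrays limits the precision. An exact permutation test of 4 against 4 arrays cannot go below p = 0.0286, so single genes were tested in the model alone. Where a gene was dim on all arrays of a group, its fold is a lower bound against the lowest signal well above background on each array.

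Named genes were Hmox1, up to 4 called members of a list in each direction, pathway-defining members, the 10 largest rises and falls among genes above background on all 8 arrays with groups that do not overlap, and the 7 qRT-PCR genes. The comparison, the lists and the rule were chosen with earlier results of these data known. The study's significance analysis (SAM) relabels samples and was not run. The methods' t-test was run on the 7 genes. On simulated data for the main comparison (19129 genes, 200 of them changed), 58% of 2-fold and 98% of 4-fold changes were recovered with 5 false calls, and for the interaction 35% and 86% with 10 false calls. The simulated noise was independent between arrays, without slide or scan day and with few changed genes. It therefore gives no error rate for the real comparison.

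The replicate numbers did not pair the arrays, since same-numbered arrays of both groups had correlations of their deviations of -0.022, -0.196, 0.161 and -0.053. Alternatives varied the background correction (normexp, offset 50), the scaling, the handling of probes, the filter, the arrays in the fit and the replicate block, and left out each array in turn. A fit on probes measured on all 20 arrays, fits without each Control or Hemin array, counts over genes measured in both groups, and all alternatives for the interaction were added after seeing the data. Some list members are not reported here by name, though they count in their lists.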

Additional observations from a re-analysis of the deposited data

Results flagged for a closer look

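Single arrays stood apart from the other 3 of their group in 23 of 252 tests, made for 126 genes in both groups with Dixon's criterion, which chance alone meets in about 1 of 20. In the IRI group these were Ppargc1a in IRI 2 (0.27), Ehhadh in IRI 2 (5.21), C3 in IRI 1 (1.54), Apob in IRI 4 (1.26), Sele in IRI 3 (-5.84), Fmnl1 in IRI 4 (0.33), Tmsb4x in IRI 4 (5.18), Slc13a1 in IRI 4 (1.48), Prlr in IRI 1 (-2.79), Ywhaz in IRI 4 (2.21), Trim55 in IRI 2 (-4.13) and Adh6a in IRI 1 (-1.95). In IRI+Hemin these were Fabp1 in IRI+Hemin 4 (-3.09), Areg in IRI+Hemin 1 (-5.45), Klf4 in IRI+Hemin 4 (4.54), Map3k8 in IRI+Hemin 4 (-3.55), Map2k6 in IRI+Hemin 4 (-0.56), Trib3 in IRI+Hemin 1 (0.11), Atf4 in IRI+Hemin 4 (1.89), LOC236598 in IRI+Hemin 2 (0.43), Trim55 in IRI+Hemin 4 (-1.72), Ddx25 in IRI+Hemin 4 (-2.33) and Ak3l1 in IRI+Hemin 2 (-3.02).

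The hemin difference was tested to differ between kidneys with and without ischemia for 28 of 126 named genes (limma, adjusted p below 0.05), or 22.2%, beside 7.85% of all genes. Most named genes were chosen because they were called in IRI+Hemin against IRI, which is a part of the same contrast, so the larger share is no result about them. It was more positive with ischemia for Alas1 (2.00), Cp (1.37), Cyp2b13 (2.44), Hacl1 (2.63), Ppargc1a (1.51), Ehhadh (0.86), Ddc (1.52), Kynu (1.25), Hpd (1.19), Slc13a1 (1.13), Fgf18 (2.50), Sema6c (1.11), Trim55 (3.38), Ddx25 (2.78), NAP030172-1 (3.99), TC1740216 (2.39), H1fx (2.10) and NAP024224-001 (2.55). It was more negative for Ccl2 (-2.34), Csf1 (-1.06), Fosl2 (-1.34), Rap2b (-2.35), Trib3 (-1.84), Atf4 (-1.21), Ntn1 (-0.66), Gadd45a (-1.38), Stat5a (-0.68) and Adh6a (-2.86). Adh6a was not tested with hemin alone, as no Control array and 1 Hemin array measured it well above background, so its value is no measure of a difference in the hemin effect. Cyp2b13 was above background on 2 Hemin arrays. Trim55, well above background on 2 IRI arrays, entered the test only through IRI+Hemin, where it is high, so its call is that of a gene chosen by its high group.

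Of these 28 calls, 13 were lost when single arrays of the 4 groups were left out. Ehhadh was lost without IRI 2 or 3, IRI+Hemin 1, 2 or 3, Control 1 or 3 or any Hemin array (adjusted p up to 0.0802). Kynu was lost without IRI 1 or 2, IRI+Hemin 2 or 4, Control 2 or 4 or Hemin 1, 2 or 3 (up to 0.0748). Ntn1 was lost without IRI 2 or 3, IRI+Hemin 2 or 3, Control 1 or 2 or Hemin 1, 3 or 4 (up to 0.0673), and Gadd45a without IRI 2 or 3, IRI+Hemin 2 or 3, Control 1 or 3 or Hemin 1 (up to 0.0621). Sema6c was lost without IRI 1 or 3, IRI+Hemin 2 or 4, Control 2 or Hemin 1, 3 or 4 (up to 0.0644), and Stat5a without IRI 1 or 2, IRI+Hemin 1 or 4, Control 2 or 4 or Hemin 2 or 4 (up to 0.0718). H1fx was lost without any array except IRI+Hemin 3 and Control 4 (up to 0.0833). Ccl2, Csf1, Hpd, Rap2b, Trib3 and Atf4 are described above.

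Other settings ended further calls. With the replicate block Ehhadh (adjusted p = 0.0591), Ntn1 (0.0542) and Stat5a (0.0658) were lost, and of the 9 to 11 other settings Ehhadh was lost in 5, Kynu in 5, Sema6c in 5, H1fx in 5, Gadd45a in 2, Stat5a in 8 and Ntn1 in 9 (adjusted p up to 0.997). With normexp Cyp2b13 fell to 0.33 (adjusted p = 0.84), Hacl1 to 0.56 (0.685), Trim55 to 1.45 (0.136) and Ddx25 to 1.16 (0.264), and Cyp2b13 was also lost with the brightest probe and the mean over probes. Without normalization Cp, Ddc, Slc13a1 and Ddx25 were lost (adjusted p = 0.0575 to 0.291), Slc13a1 also with the mean over probes. Alas1, Ppargc1a, Fosl2, Fgf18, NAP030172-1, TC1740216 and NAP024224-001 were called in each alternative that gave a value.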

How the results depend on the processing

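Slide, scan day and hemin cannot be told apart, and slide as a block was not run because each slide holds 1 group. Without normalization 598 genes were lower, 2891 at least 2-fold higher, 341 at least 2-fold lower and 368 differed in the hemin effect, and with the deposited matrix 1501 were lower and 490 at least 2-fold lower. With normexp 2599 were higher, 294 and 247 were at least 2-fold higher and lower, and 151 differed in the hemin effect. The reversals were few: normexp turned Cyp2b10 (-0.065), Cyp2b13 (-0.21), Kynu (-0.034) and Saa3 (-0.017), and the differences of the hemin effect of Kynu (-0.058) and Sema6c (-0.012), and the mean of log2 over probes turned that of Ntn1 (0.083). The brightest probe gave 801 such differences, no filter 5624 lower genes and a strict filter 695 at least 2-fold higher genes, and with no filter or a strict one the number of genes tested changes. For the others the cause was not tested. Beside the losses given above, the calls of Selp, Cdh5, Plaur, Lcn2, Havcr1, Areg, Ptgs2, Cpt1a, Fosl1, Apaf1, Gapdh, Ccl7 and Il1b were lost without normalization, those of Lcn2, Cpt1a, Kdr, Apaf1, Hmgcs1, Ccl7 and Il1b with the deposited matrix, of Abp1, Cpt1a and Gapdh with normexp, of C3, Havcr1, Cyp2b13 and Stard4 with the mean of log2 over probes, and of Ccl7, Il1b, Areg and Stat3 in the 8 arrays alone. With each array left out, 4019 to 4389 genes were higher, 2683 to 3144 lower, 1207 to 1359 and 787 to 960 at least 2-fold higher and lower, and 935 to 1512 differed in the hemin effect, for which Control and Hemin arrays were left out too. With the replicate block, although the numbers did not pair the arrays, 4434 were higher, 3024 lower, 1318 and 886 at least 2-fold higher and lower, and 1192 differed in the hemin effect. On probes measured on all 20 arrays, chosen after seeing the data, 4645 were higher and 3206 lower.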

Other observations

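Cholesterol synthesis genes had 8 of 22 lower and 1 higher in IRI+Hemin (median -0.40), beside 18% and 26.1% of all genes. The lower count was 12 with quantile normalization, 11 with the 75th percentile of probes bright on all arrays, 4 with the deposited matrix and 3 without normalization, and 6 to 12 without single arrays. Insig1, a sterol-sensing retention protein, was at -2.72, -2.80, -3.07 and -2.32 against -1.40, -1.41, -1.45 and -1.48 (-1.29 ± 0.14, adjusted p = 5.24e-06), and was lower with hemin alone too (-1.23). Hmgcs1, which makes the precursor of sterols, differed by -0.996 (adjusted p = 0.00184) with overlapping groups, and Stard4, a sterol carrier, was higher (1.29) although 2 of its 3 probes were lower (-0.31 and -0.95). Of 20 clock genes 3 were lower and 2 higher, among them the repressors Cry1 and Bhlhe40 (-1.18) and, of the higher, Csnk1e (1.67), a clock kinase.

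The counts that follow stand beside 26.1% of all genes higher and 18% lower, and many lie near these shares. Wnt signaling had 8 of 26 genes higher and 3 lower, among them the coreceptors Lrp5 (1.73 ± 0.30, adjusted p = 0.000219) and Lrp6 (-0.68). Without Wnt members measured well in 1 group alone, 7 of 24 were higher and 2 lower, beside 24.2% and 19.1%. Toll and NOD receptor signaling had 4 of 30 higher, led by Tlr2 (1.28), and 8 lower, with Tlr3 (-0.999) and Nod2 (-0.87). In the cell cycle list 6 of 27 were higher and 6 lower, with Lmnb1 (2.24) and Kif20b (-2.41) at the ends. Translation and RNA transport had 10 of 28 higher and 8 lower, with Hnrnpl (-2.33) the lowest, and secretory transport 4 of 24 higher and 10 lower. The lower count of secretory transport was 5 with the brightest probe or normexp and 3 with the deposited matrix. Without normalization it was 1, beside 6 higher. Heat shock proteins had 2 of 18 higher and 3 lower, corticosteroid response genes 1 of 13 higher and 3 lower, and podocyte genes 2 of 9 higher and none lower. Of red cell markers none of 4 passed in either direction in limma. Of adrenal markers 1 of 4 was higher and 1 lower, and of fat and pancreas markers 1 of 5 was higher. This fat and pancreas marker was measured well in 1 group alone, and of the 3 measured in both groups none was higher.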
